A study of Homo sapiens with 6 samples.

Results

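Serpins are a superfamily of proteins that share one fold, and most of them inhibit serine proteases by letting the protease cut an exposed loop and trapping it in a covalent complex. The liver secretes many serpins into plasma, among them alpha-1-antitrypsin, the clade A carriers of steroid and thyroid hormone, and the inhibitors of clotting and fibrinolysis. Clade B serpins lack a classical signal peptide and mostly act inside cells, where they shield the cell against its own proteases or against those of immune granules. The genes described here are the protein-coding genes whose symbol starts with SERPIN. RefSeq lists 34 of them, and 31 were read by a probe set with exactly 1 gene symbol, out of 33616 named genes in all. The others were not analysed here. A probe set is the group of array probes that reads one transcript, and a gene with several is represented by its brightest one, judged by the mean of the 6 arrays.

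The cells were HepG2, an established human liver cancer line that keeps many traits of hepatocytes. They received, at 30 nM, either a scrambled siRNA or one against UHMK1, a kinase that carries a U2AF homology motif, and RNA was taken after 24 h. Each group has 3 Affymetrix arrays. Whether replicates were separate cultures is not stated in the labels, and the p-values therefore rest on the spread among 3 samples that may be technical. The labels describe no other siRNA against UHMK1, so an effect of losing UHMK1 and another effect of this siRNA cannot be told apart. The comparison asks which serpin transcripts differ between the 2 siRNAs.

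Values are deposited log2 expression values. A change is the mean of the UHMK1 siRNA arrays minus the mean of the scrambled siRNA arrays on that log2 scale. A gene is said to have risen or fallen where the adjusted p of limma's test was under 0.05, adjusted over all 33616 genes by the Benjamini-Hochberg method. UHMK1 itself read 11.42, 11.24 and 11.74 with the scrambled siRNA and 8.36, 7.80 and 7.94 with its own siRNA, a change of -3.43 (SE 0.20, limma adjusted p = 0.000112). UHMK1 siRNA array 2 stood apart: its median difference from the scrambled group, taken over 8865 genes with a mean above 8, was -0.25, while arrays 1 and 3 of that group had -0.03 and -0.06. Of all called genes 78.6% were lower, and 61.3% after quantile normalization. All 9 measured hepatocyte markers were above a mean level of 6, from FOXA2 at 6.79 to APOA2 at 19.49, and 0 of them passed the test. Among them FGB, the fibrinogen beta chain, differed by 0.70 (adjusted p = 0.0668) with groups that did not overlap, a difference in the direction and of the size seen in several plasma serpins below. The keratinocyte markers KRT5, KRT14, IVL and DSG3 were all below 6. Above it were VWF of endothelium (6.19) and COL1A1 and COL1A2 of fibroblasts. Below it were DCN (4.48), LUM (3.90) and PDGFRB (5.86) of the fibroblast and stellate list, PTPRC and CD3E of immune cells and PECAM1, CDH5 and KDR of endothelium, while LYZ and CD68 of the immune list lay higher. The mean over the 4 measured immune markers was 10.25 to 10.47 on the scrambled siRNA arrays and 10.10 to 10.14 on the UHMK1 siRNA arrays, and the part of LYZ or CD68 in the results was not tested.

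Of the 31 serpin genes 4 rose and 1 fell. Of all tested genes 0.726% rose and 2.67% fell, 3.39% in either direction. The rises were those of SERPINA6, SERPINA4, SERPINA5 and SERPINC1, all secreted by the liver, and the fall was that of SERPINB9, which acts inside cells. Among members 19 had a mean level above 6, and all 5 calls lay there. Among the 13543 genes above that level 1.57% rose and 6.29% fell. The other 12 members, 8 of them of clade B, lay at means of 3.71 to 5.66, where a change of a transcript that is barely read may be missed. An unadjusted p under 0.05 was reached by 9 members that were higher and 3 that were lower, all 12 of them above 6 and with groups that did not overlap. Of all genes 5.21% were higher and 10.1% lower by that unadjusted p, and 7.97% and 19.4% of those above 6. Groups that did not overlap were found for 7.74% (higher) and 13.3% (lower) of all genes.

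The median change was 0.02 over the 31 members, 0.25 over the 19 brighter members, -0.02 over all genes and -0.08 over all genes above 6. In these bulk samples of HepG2 cells, a change in every cell and a change in only some of the cells cannot be told apart.

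**Figure D1:**
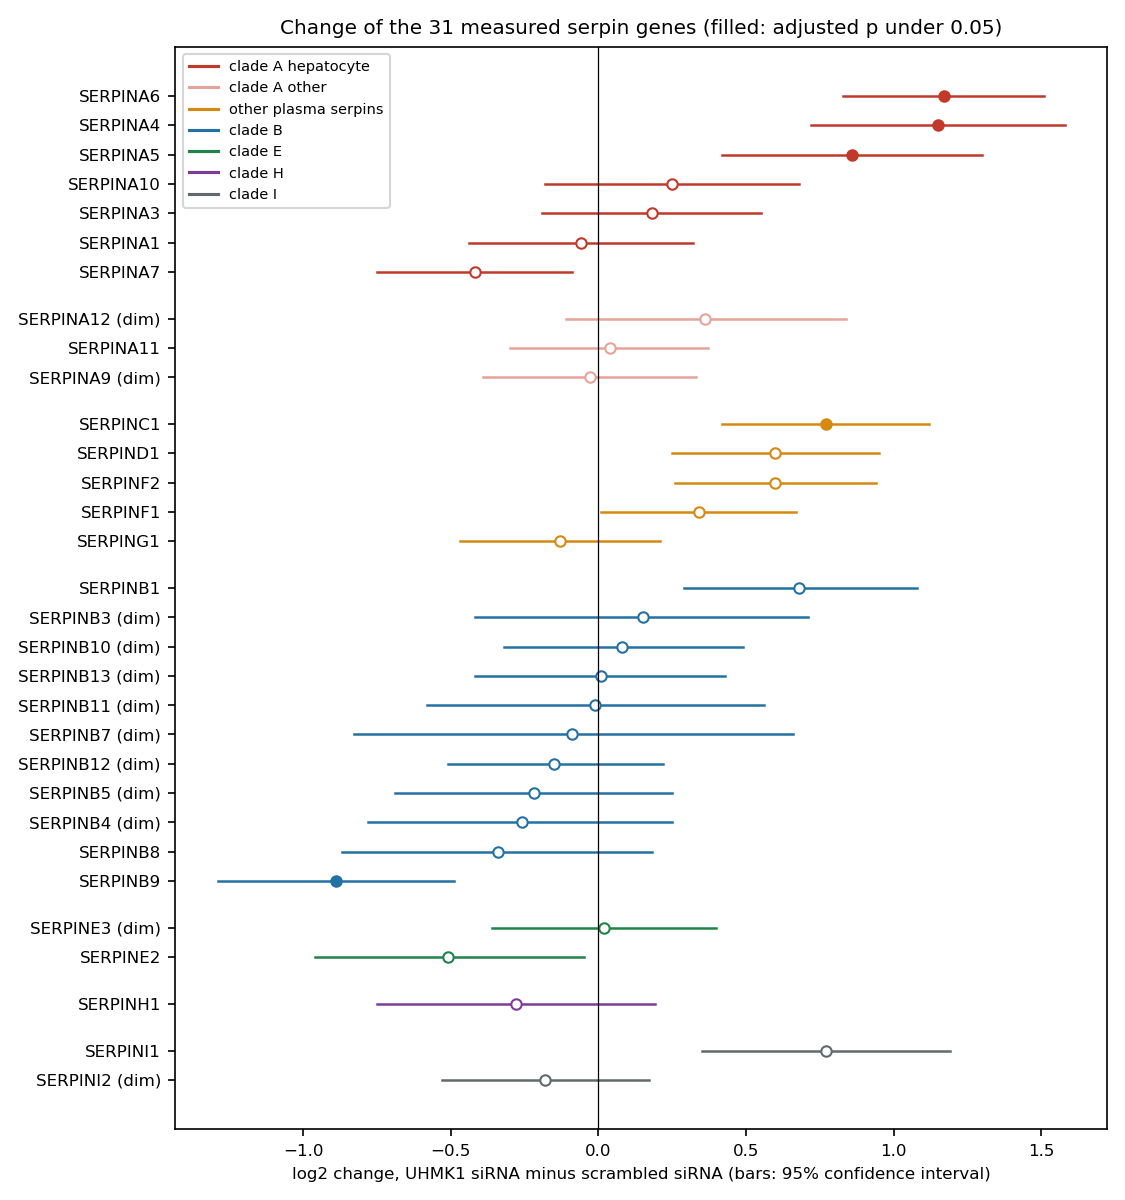
Log2 change of each measured serpin gene, UHMK1 siRNA minus scrambled siRNA, ordered within clades. Points are fitted changes from 3 arrays per group, bars are 95% confidence intervals, filled points have an adjusted p under 0.05, and "dim" marks a mean level of 6 or less. The 4 filled points on the right are SERPINA6, SERPINA4, SERPINA5 and SERPINC1, and the one on the left is SERPINB9.

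Among the 7 clade A serpins known as hepatocyte products, those that did not pass had changes from -0.42 (SERPINA7) to 0.25 (SERPINA10). SERPINA6, SERPINA4 and SERPINA5 rose, 0 fell, and the median of the 7 was 0.25. All 7 had a mean level above 6.

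SERPINA6 encodes corticosteroid-binding globulin, which carries cortisol in plasma and does not inhibit proteases. Its levels were 12.99, 13.15 and 13.25 after scrambled siRNA and 14.43, 14.19 and 14.28 after UHMK1 siRNA. Every UHMK1 siRNA array was above every scrambled siRNA array, by 0.94 or more. The change was 1.17 (SE 0.15, 95% confidence interval 0.83 to 1.51, adjusted p = 0.00419), which is 2.25-fold on the deposited scale. It was the largest rise of the family, and it passed under all 14 other settings tried, 1 array left out included, at changes of 1.10 to 1.32.

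SERPINA4 encodes kallistatin, an inhibitor of tissue kallikrein. Its levels were 10.77, 10.96 and 11.28 after scrambled siRNA, against 12.30, 11.88 and 12.29 after UHMK1 siRNA. All 3 were above the scrambled group, and UHMK1 siRNA array 2 was the lowest of its group. The change was 1.15 (SE 0.19, 95% confidence interval 0.72 to 1.58, adjusted p = 0.0130), or 2.22-fold. The call was lost when scrambled siRNA array 1 (1.04) or 2 (1.13), or UHMK1 siRNA array 1 (1.08) or 3 (1.09), was dropped, at adjusted p-values of 0.0531 to 0.0684. Over all other settings the adjusted p ran from 0.00290 to 0.0684.

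SERPINA5 encodes protein C inhibitor, which inhibits activated protein C and several other proteases. Scrambled siRNA arrays read 10.44, 10.50 and 10.94, and the other group read 11.29, 11.76 and 11.42. The highest scrambled siRNA array was 0.35 below the lowest UHMK1 siRNA array. The change was 0.86 (SE 0.19, 95% confidence interval 0.42 to 1.30, adjusted p = 0.0477), or 1.82-fold, just past the threshold. Dropping any single array ended the call of SERPINA5 (changes of 0.73 to 1.02, adjusted p = 0.0540 to 0.182).

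The other 4 did not pass. SERPINA7 encodes thyroxine-binding globulin, which like SERPINA6 carries a hormone and does not inhibit proteases. Its levels were 14.81, 14.69 and 14.69 after scrambled siRNA and 14.46, 14.21 and 14.26 after UHMK1 siRNA, so that the groups did not overlap but differed by only -0.42 (SE 0.15, adjusted p = 0.195). The 2 hormone carriers thus had changes of opposite sign, of which that of SERPINA6 passed. SERPINA7 passed with a trended and robust prior (adjusted p = 0.0476, and 0.0476 to 0.436 over all other settings).

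SERPINA1, alpha-1-antitrypsin, is the main plasma inhibitor of neutrophil elastase. It read 18.60, 18.66 and 18.76 after scrambled siRNA and 18.76, 18.33 and 18.76 after UHMK1 siRNA. The groups overlapped, and the change was -0.06 (95% confidence interval -0.44 to 0.32, adjusted p = 0.920). These levels lie near the top of the scale, where a change may be compressed, which was not tested. Without UHMK1 siRNA array 2 the change was 0.09.

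SERPINA3, alpha-1-antichymotrypsin, is an acute-phase protein that inhibits cathepsin G. It read 16.12, 16.21 and 16.46 after scrambled siRNA and 16.29, 16.63 and 16.42 after UHMK1 siRNA, overlapping groups with a change of 0.18 (95% confidence interval -0.19 to 0.55, adjusted p = 0.680). SERPINA10 encodes the protein Z-dependent inhibitor of factor Xa. Its levels were 10.24, 9.93 and 10.33 after scrambled siRNA and 10.72, 10.14 and 10.39 after UHMK1 siRNA, with a change of 0.25 (95% confidence interval -0.18 to 0.68, adjusted p = 0.619). For SERPINA1, SERPINA3, SERPINA10 and SERPINA7 (-0.75 to -0.09) the intervals leave out a rise as large as 0.83, the lower bound for SERPINA6. The lower bound for SERPINA5, 0.42, lies inside the intervals of SERPINA3 and SERPINA10. Those genes are thus not clearly set apart from SERPINA5. Of the remaining clade A genes, SERPINA11 was at 8.93 to 9.23 on all 6 arrays with a change of 0.04, while SERPINA12 (vaspin, known from adipose tissue) and SERPINA9 (known from germinal centre B cells) lay at means of 3.71 and 3.77.

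**Figure D2:**
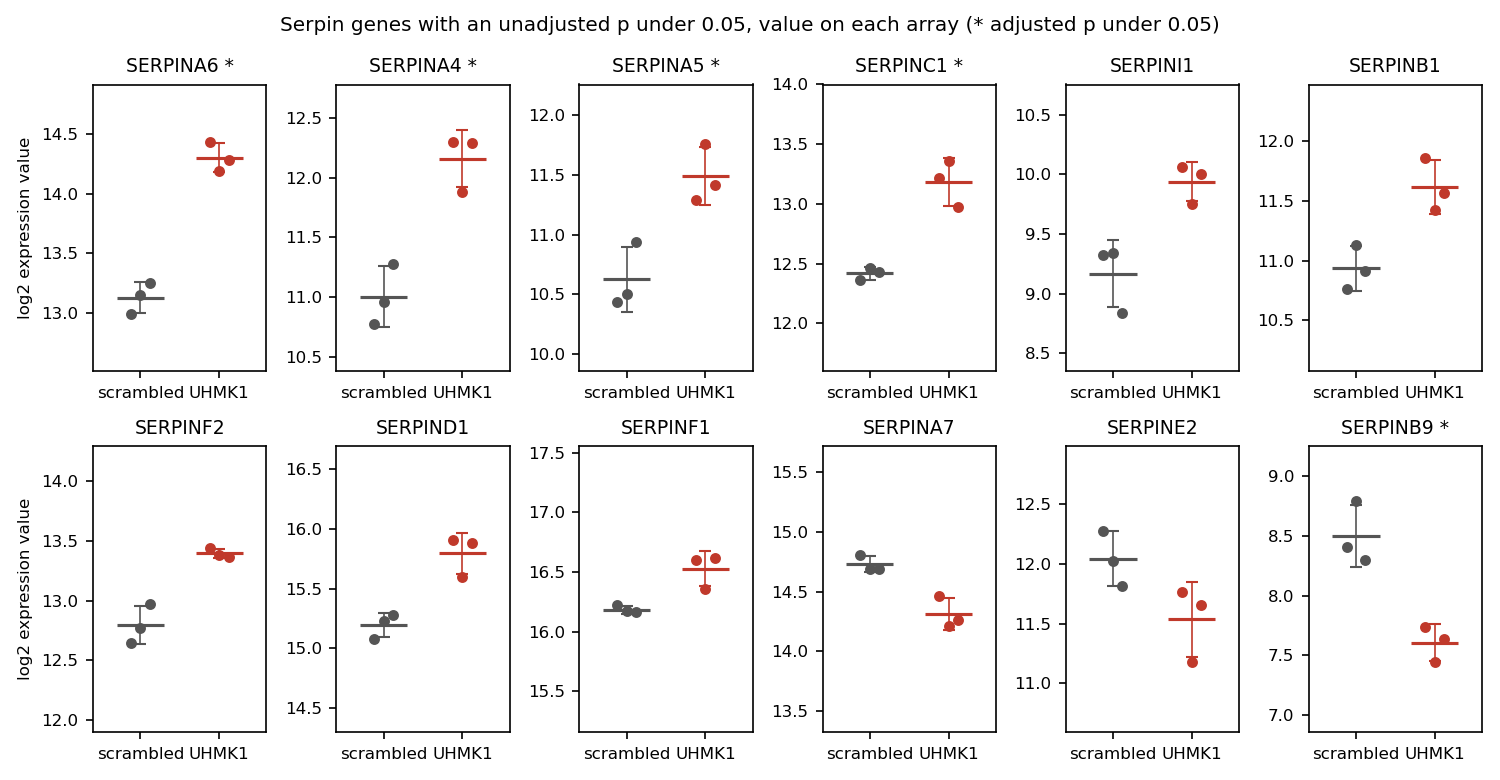
Log2 expression value on each array for the 12 serpin genes with an unadjusted p under 0.05, in panels of equal height. Points are arrays 1 to 3 from left to right, horizontal lines are group means and bars are SD (n = 3), and an asterisk marks an adjusted p under 0.05. In every panel the groups do not overlap: 9 genes are higher and 3 are lower after UHMK1 siRNA.

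Beyond clade A, the liver secretes 5 further serpins measured here, and 1 of them rose. SERPINC1 encodes antithrombin, the main inhibitor of thrombin and factor Xa. Its levels were 12.36, 12.46 and 12.43 after scrambled siRNA and 13.22, 13.36 and 12.97 after UHMK1 siRNA. The scrambled siRNA arrays lay within 0.10 of each other and all below the UHMK1 siRNA arrays. The change was 0.77 (SE 0.16, 95% confidence interval 0.42 to 1.12, adjusted p = 0.0320), or 1.70-fold. Dropping any single array other than UHMK1 siRNA array 3 ended the call of SERPINC1 (changes of 0.68 to 0.79).

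SERPIND1 and SERPINF2 had changes of like size that did not pass. SERPIND1, heparin cofactor II, another thrombin inhibitor, stood at 15.08, 15.23 and 15.28 against 15.91, 15.60 and 15.88 (0.60, SE 0.15, adjusted p = 0.0797). SERPINF2, alpha-2-antiplasmin, the plasma inhibitor of plasmin, stood at 12.65, 12.77 and 12.97 against 13.44, 13.38 and 13.37 (0.60, SE 0.15, adjusted p = 0.0691). In both genes every UHMK1 siRNA array was above every scrambled siRNA array. Both passed under quantile and cyclic loess normalization, with array weights, with a trended and robust prior, among genes above 6 alone, and among protein-coding genes alone. The adjusted p over all other settings ran from 0.0106 to 0.255 for SERPIND1 and from 0.0141 to 0.240 for SERPINF2.

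SERPINF1, pigment epithelium-derived factor, a non-inhibitory serpin known for restraining vessel growth, stood at 16.22, 16.17 and 16.16 against 16.60, 16.36 and 16.62 (0.34, SE 0.15, adjusted p = 0.304). SERPING1, the C1 inhibitor that controls complement and contact activation, was at 6.21 to 6.60 on all 6 arrays with a change of -0.13 (adjusted p = 0.758). Over these 5 genes the median change was 0.60, and 4 of them had groups that did not overlap, all higher after UHMK1 siRNA. Of all genes above 6, 11.4% had groups that did not overlap and were higher after UHMK1 siRNA, and 24.2% were lower in that way. Together the 12 plasma serpins had 4 rises, 0 falls and a median change of 0.47, and 7 were higher with no overlap against 1, SERPINA7, that was lower.

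On single arrays the median difference of the plasma serpins from their scrambled siRNA mean was positive on each UHMK1 siRNA array. For the 5 non-clade A genes it was 0.64, 0.40 and 0.55 on UHMK1 siRNA arrays 1, 2 and 3. On scrambled siRNA arrays 1, 2 and 3 it was -0.06, -0.01 and 0.08. For the 7 clade A genes it was 0.55, 0.37 and 0.22 on the UHMK1 siRNA arrays and -0.14, -0.04 and 0.16 on the scrambled siRNA arrays. Clade A on UHMK1 siRNA array 3 was thus close to scrambled siRNA array 3. Over all genes above 6 the UHMK1 siRNA arrays had -0.02, -0.20 and -0.04. Array 2 was the lowest for all genes above 6 and for the 5 non-clade A genes, while array 3 was the lowest for the 7 clade A genes.

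The clade A genes of chromosome 14 lie next to each other, in the order SERPINA10, SERPINA6, SERPINA1, SERPINA11, SERPINA9, SERPINA12, SERPINA4, SERPINA5 and SERPINA3 in the RefSeq table of GRCh38.p14, with no other protein-coding gene of that table starting between them. The rises were not at one end of this row. SERPINA6 (1.17) lies between SERPINA10 (0.25) and SERPINA1 (-0.06), while SERPINA4 (1.15) and SERPINA5 (0.86) are neighbours, followed by SERPINA3 (0.18).

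**Figure D3:**
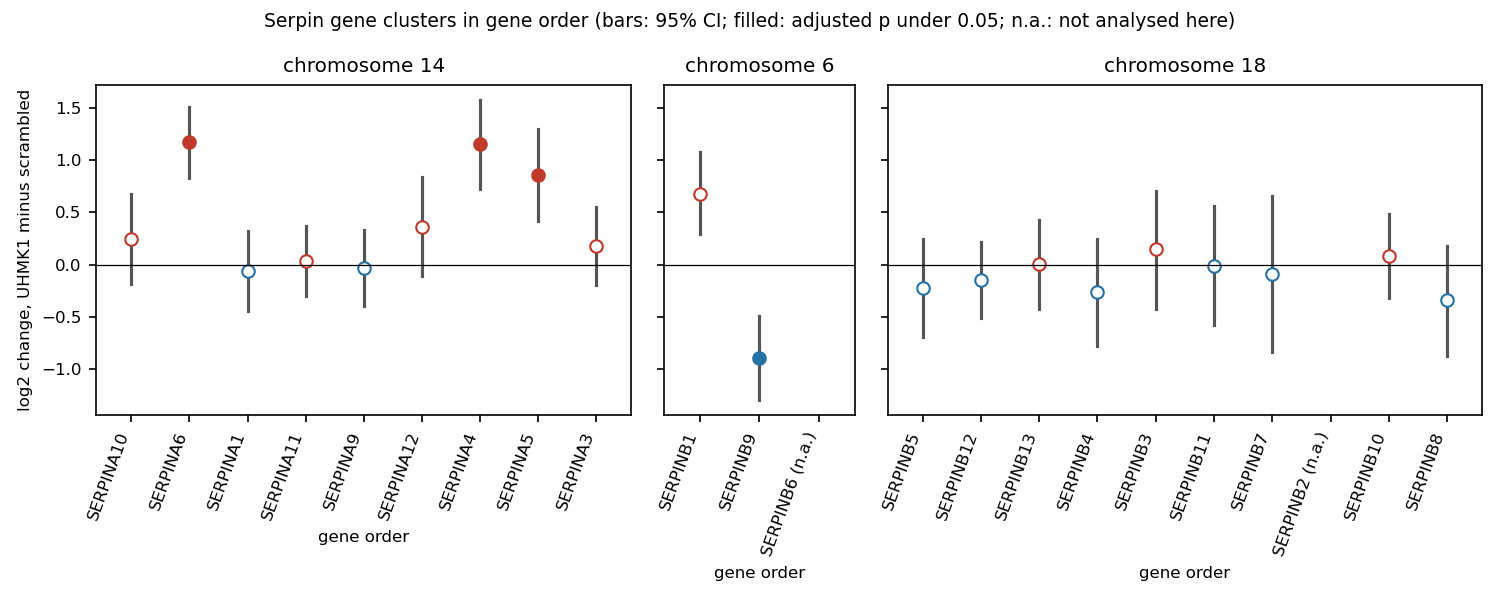
Log2 change of the serpin genes of chromosomes 14, 6 and 18 in gene order, UHMK1 siRNA minus scrambled siRNA, with 95% confidence intervals (3 arrays per group). Filled points have an adjusted p under 0.05: SERPINA6, SERPINA4 and SERPINA5 on chromosome 14 and SERPINB9 on chromosome 6, with red for positive and blue for negative changes.

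The upstream sequences of the 3 clade A genes that rose, and of SERPINA1, whose change was near 0, are shown because these genes share a chromosomal neighbourhood and differ in response. Each is the 250 bases before the gene's start from RefSeq (GRCh38.p14), read 5′ to 3′ on the gene's strand. Capitals mark matches, on either strand, to TGTTTAC, a form bound by FOXA factors. For SERPINA1 the downstream of its 2 listed starts is shown.
SERPINA6, chr14:94323337-94323586, minus strand: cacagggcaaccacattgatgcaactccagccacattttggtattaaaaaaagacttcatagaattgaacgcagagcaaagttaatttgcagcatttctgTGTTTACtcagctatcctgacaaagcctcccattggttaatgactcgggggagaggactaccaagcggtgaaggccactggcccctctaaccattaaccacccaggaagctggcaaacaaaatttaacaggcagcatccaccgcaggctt
SERPINA4, chr14:94561192-94561441, plus strand: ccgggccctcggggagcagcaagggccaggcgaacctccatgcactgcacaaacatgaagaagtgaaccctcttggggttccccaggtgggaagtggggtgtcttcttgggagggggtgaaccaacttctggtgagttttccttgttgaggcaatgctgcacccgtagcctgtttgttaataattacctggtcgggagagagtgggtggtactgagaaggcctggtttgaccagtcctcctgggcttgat
SERPINA5, chr14:94581176-94581425, plus strand: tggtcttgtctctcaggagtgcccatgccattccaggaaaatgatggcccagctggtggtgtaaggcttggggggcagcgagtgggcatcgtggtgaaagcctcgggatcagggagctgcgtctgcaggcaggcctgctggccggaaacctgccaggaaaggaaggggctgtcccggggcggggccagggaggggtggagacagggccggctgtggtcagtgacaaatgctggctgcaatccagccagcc
SERPINA1, chr14:94388603-94388852, minus strand: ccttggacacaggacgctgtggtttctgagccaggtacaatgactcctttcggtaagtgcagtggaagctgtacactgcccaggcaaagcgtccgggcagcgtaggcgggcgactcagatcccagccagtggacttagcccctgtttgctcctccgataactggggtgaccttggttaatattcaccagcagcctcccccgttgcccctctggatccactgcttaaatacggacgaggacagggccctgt

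SERPINA6 held 1 match to TGTTTAC, at 150 bases before the start. The windows shown for SERPINA4 and SERPINA5, which rose, and for SERPINA1 held no match to these exact letters. Other forms were not searched. The SERPINA1 window holds the near form TGTTTGC and the SERPINA4 window holds TGTTTGT, so these genes cannot be said to lack a FOXA site. Of the 8 plasma serpins with a promoter entry 1, SERPINA6, had a match in at least 1 window, and 0 of the 9 clade B genes with an entry had one. Over the 22199 windows of protein-coding genes 2.45% had one. Matches to TTGCNNAA, a form bound by C/EBP factors, were in 2 of 8 and 2 of 9 genes (7.5% of windows). CAAAGTCCA, a form bound by HNF4, was in 0 of 8 and 0 of 9 genes (0.306% of windows). A gene can have several windows, so counts of genes and shares of windows are unlike measures. The motifs were chosen after the values were seen, and a match is a run of letters, not a shown binding site.

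Among the 11 measured clade B serpins 1 fell and 0 rose, with a median change of -0.09. Only SERPINB1, SERPINB8 and SERPINB9 had a mean level above 6. SERPINB9 encodes the inhibitor of granzyme B, the protease that cytotoxic lymphocytes deliver into target cells. Scrambled siRNA arrays read 8.41, 8.79 and 8.30, and UHMK1 siRNA arrays read 7.74, 7.44 and 7.64, with the groups apart by 0.56. It fell by 0.89 (SE 0.18, 95% confidence interval -1.29 to -0.49, adjusted p = 0.0285), which left 53.8% of the signal. Dropping any single array ended the call of SERPINB9 (changes of -0.99 to -0.75). The pseudogene SERPINB9P1 is not protein-coding and was therefore not a member. Its probe set, which also carries a microRNA symbol, lay at 3.10 to 3.61 on all 6 arrays.

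The 250 bases before the start of SERPINB9 are shown as the only upstream window of a member that fell, with capitals for a match to TATAAA, the TATA box, 30 bases before the start. TATAAA, on either strand and anywhere in the window, was in 9% of the single windows of protein-coding genes. Counted per gene, in any of its windows, it was in 4 of 9 clade B genes and in 1 of 8 plasma serpins. Shares per window and per gene are unlike measures. Some matches lay far from the start, as in SERPINB12 at 176 bases.
SERPINB9, chr6:2903310-2903559, minus strand: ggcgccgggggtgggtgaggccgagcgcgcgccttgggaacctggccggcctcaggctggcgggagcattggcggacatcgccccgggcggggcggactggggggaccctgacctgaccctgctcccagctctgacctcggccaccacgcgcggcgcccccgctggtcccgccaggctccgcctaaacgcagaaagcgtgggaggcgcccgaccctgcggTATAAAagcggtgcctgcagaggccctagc

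SERPINB1, the leukocyte elastase inhibitor, is the neighbour of SERPINB9 on chromosome 6 and differed in the opposite direction. It read 10.76, 11.13 and 10.91 after scrambled siRNA, against 11.86, 11.42 and 11.57. The groups did not overlap, but the change of 0.68 (SE 0.17, 95% confidence interval 0.29 to 1.08, adjusted p = 0.0770) did not pass. It passed under the same 6 other settings as SERPIND1 and SERPINF2, and its adjusted p over all other settings ran from 0.0234 to 0.254. SERPINB8, which inhibits the proprotein convertase furin, was at 7.30, 7.36 and 7.15 against 7.06, 6.39 and 7.33, overlapping groups with a change of -0.34 (adjusted p = 0.558) that was -0.07 without UHMK1 siRNA array 2.

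The other 8 clade B genes lie on chromosome 18 and had means of 3.79 (SERPINB5, maspin) to 5.42 (SERPINB12). None was called, 0 had an unadjusted p under 0.05, and their changes ran from -0.26 for SERPINB4 to 0.15 for SERPINB3. SERPINB3 and SERPINB4, the squamous cell carcinoma antigens, are near-identical copies whose probes can bind either transcript. The keratinocyte markers listed above lay at means of 3.76 to 4.25, at the low end of the levels of these 8 genes.

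Set side by side, clade A hepatocyte serpins had 3 rises and 0 falls among 7 genes, and clade B had 0 rises and 1 fall among 11. Of all genes 0.726% rose and 2.67% fell, and of those above 6, 1.57% rose and 6.29% fell. The median change was 0.25 for clade A hepatocyte serpins and -0.09 for clade B. It was -0.34 for the 3 clade B genes above 6, and -0.08 for all genes above 6. Those 3 clade B genes had no common direction, with 0.68 for SERPINB1, -0.34 for SERPINB8 and -0.89 for SERPINB9. That -0.34 is the change of SERPINB8 itself, which was -0.07 without UHMK1 siRNA array 2, and the median difference of the 3 genes was -0.21, -0.88 and 0.06 on UHMK1 siRNA arrays 1, 2 and 3. For clade A hepatocyte serpins the median difference from the scrambled siRNA mean was 0.55, 0.37 and 0.22 on UHMK1 siRNA arrays 1, 2 and 3. On scrambled siRNA arrays 1, 2 and 3 it was -0.14, -0.04 and 0.16. For all 11 clade B genes it was -0.12, -0.08 and -0.34 on the UHMK1 siRNA arrays and -0.12, 0.20 and -0.06 on the scrambled siRNA arrays. The clade B values thus overlapped between the groups. The difference between the clades was not tested, because the members were chosen with results of these data known. The clades also differ in level, with all 7 clade A genes and 3 of 11 clade B genes above 6, so that clade and level cannot be told apart for most of clade B.

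Outside these groups 0 serpins were called. SERPINI1, neuroserpin, an inhibitor of tissue plasminogen activator known from the nervous system, read 9.32, 9.34 and 8.84 after scrambled siRNA, against 10.06, 9.75 and 10.00. Its groups did not overlap, and the change of 0.77 (SE 0.18, 95% confidence interval 0.35 to 1.19, adjusted p = 0.0602) was as large as that of SERPINC1 with a wider interval. SERPINI1 passed under the same 6 settings as SERPINB1, with an adjusted p of 0.0179 to 0.183 over all other settings. SERPINE2, protease nexin-1, which inhibits thrombin and plasminogen activators at the cell surface, stood at 12.28, 12.03 and 11.82 against 11.77, 11.18 and 11.66 (-0.51, SE 0.20, adjusted p = 0.266). Its groups were apart by 0.05, and the change was -0.33 without UHMK1 siRNA array 2.

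SERPINH1 encodes HSP47, a chaperone of collagen in the endoplasmic reticulum. It was at 10.59, 10.87 and 10.57 against 10.56, 9.97 and 10.66, with a change of -0.28 (adjusted p = 0.600) that was -0.07 without UHMK1 siRNA array 2. It is the only member with several probe sets, and its dimmer one read 4.67, 4.91 and 4.89 against 4.76, 5.61 and 4.77. The mean over all its probe sets changed by -0.03 (limma adjusted p = 0.958). SERPINE3 and SERPINI2 lay at means of 4.98 and 5.66.

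**Figure D4:**
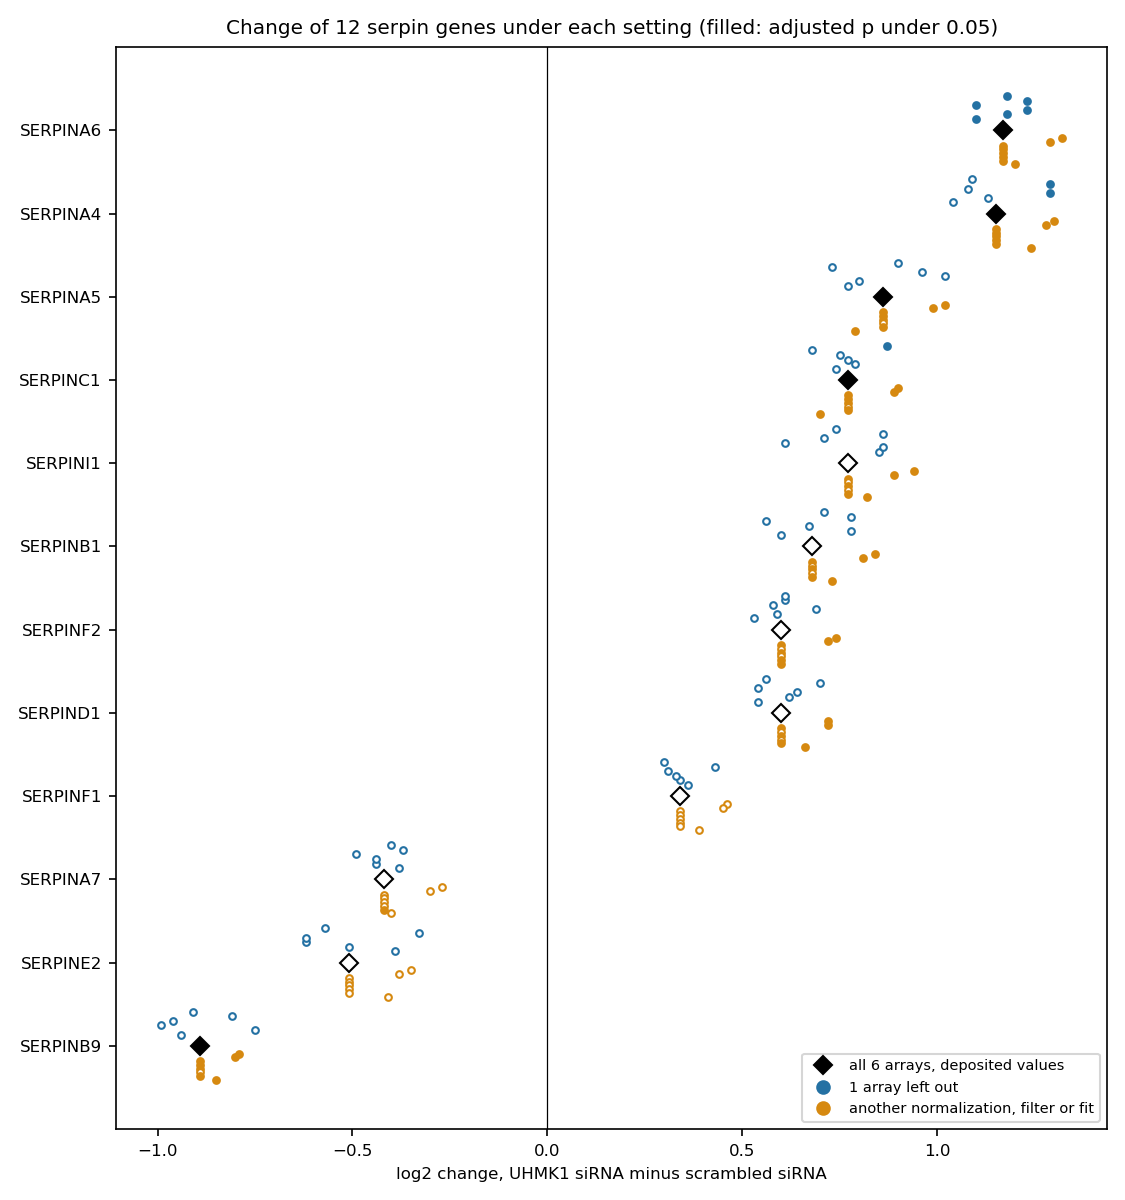
Log2 change, UHMK1 siRNA minus scrambled siRNA, of the 12 serpin genes with an unadjusted p under 0.05, under the main setting (diamonds), with 1 array left out (blue) and under other normalizations, filters and fits (orange). Filled symbols have an adjusted p under 0.05: SERPINA6 is filled throughout, and SERPINI1, SERPINB1, SERPINF2 and SERPIND1 are open in the main setting and filled in 6 of the 8 orange points.

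Genes that work with serpins were counted in 5 lists written from general knowledge, 112 measured genes in all, of which 4 rose and 6 fell. Of the 112 genes 82 were above 6, a level at which 1.57% of all genes rose and 6.29% fell, so the falls lie near that background. The median change over them was 0.03. Of 37 proteases in the list, not all of them known targets of serpins, 3 rose and 1 fell. The clotting factors F10, a target of SERPINC1 and SERPINA10, and F7 each rose by 1.00, F10 from 9.06 ± 0.13 to 10.06 ± 0.07 (SD, n = 3, adjusted p = 0.00781) and F7 from 7.91 ± 0.20 to 8.90 ± 0.07 (adjusted p = 0.0100). PRSS8, prostasin, rose by 0.74 (adjusted p = 0.0416), and CTSL, cathepsin L, a target of SERPINB3, fell by 1.19, from 9.12 ± 0.09 to 7.93 ± 0.35 (adjusted p = 0.0118). F10 was read by a probe set whose name marks it as unmapped, and the mean over all its probe sets changed by 0.55 (adjusted p = 0.167). With 1 array left out, F7 lost its call without scrambled siRNA arrays 1 (0.99) or 3 (0.90), CTSL without any scrambled siRNA array (-1.22 to -1.14), and PRSS8 without any array (0.67 to 0.85).

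Of 16 genes of the urokinase system and of the receptors that clear serpin-protease complexes, SORL1, a sorting receptor of the LDL receptor family, fell by 0.80 (adjusted p = 0.0281). Dropping any array ended that call (-0.89 to -0.71), as did quantile normalization (-0.64, adjusted p = 0.0574), and the mean over all its probe sets changed by -0.32 (adjusted p = 0.362). Of 14 transcription and signalling genes of liver serpins, IL6ST, the shared receptor of interleukin-6 type cytokines, rose by 0.79 (adjusted p = 0.0152) and CEBPA, a hepatocyte transcription factor, fell by 0.91 (adjusted p = 0.0169). For IL6ST only UHMK1 siRNA array 2 could be dropped without losing the call (0.78 to 0.81 over the 6 arrays). CEBPA lost it on dropping array 2 (-0.88) or 3 (-0.85) of the scrambled group or array 1 (-0.83) or 3 (-0.89) of the UHMK1 group, and under quantile (-0.75) and cyclic loess (-0.79) normalization.

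Of 22 collagen and collagen-modifying genes around SERPINH1, LOX, lysyl oxidase, which crosslinks collagen, fell by 1.68, from 7.31 ± 0.36 to 5.63 ± 0.29 (SD, n = 3, limma adjusted p = 0.00464), and 0 rose.

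Of 23 endoplasmic reticulum genes that handle alpha-1-antitrypsin or glycoproteins like it, all above 6, 2 fell and 0 rose, beside 6.29% of all genes at that level that fell. MCFD2 forms with LMAN1 a cargo receptor that carries clotting factors and alpha-1-antitrypsin out of the endoplasmic reticulum. It stood at 14.55 ± 0.08 after scrambled siRNA and 12.56 ± 0.17 after UHMK1 siRNA (SD, n = 3), and fell by 1.98 (SE 0.15, 95% confidence interval -2.33 to -1.64, adjusted p = 0.000470). It kept its call with any array left out. The lectin chaperone CANX, calnexin, fell by 1.07 (adjusted p = 0.0230), and lost its call without any scrambled siRNA array (-1.10 to -1.02) or UHMK1 siRNA array 1 (-1.15). The transcript of SERPINA1, whose protein is a cargo of this pathway, had the change of -0.06 given above. The protein was not measured.

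**Figure D5:**
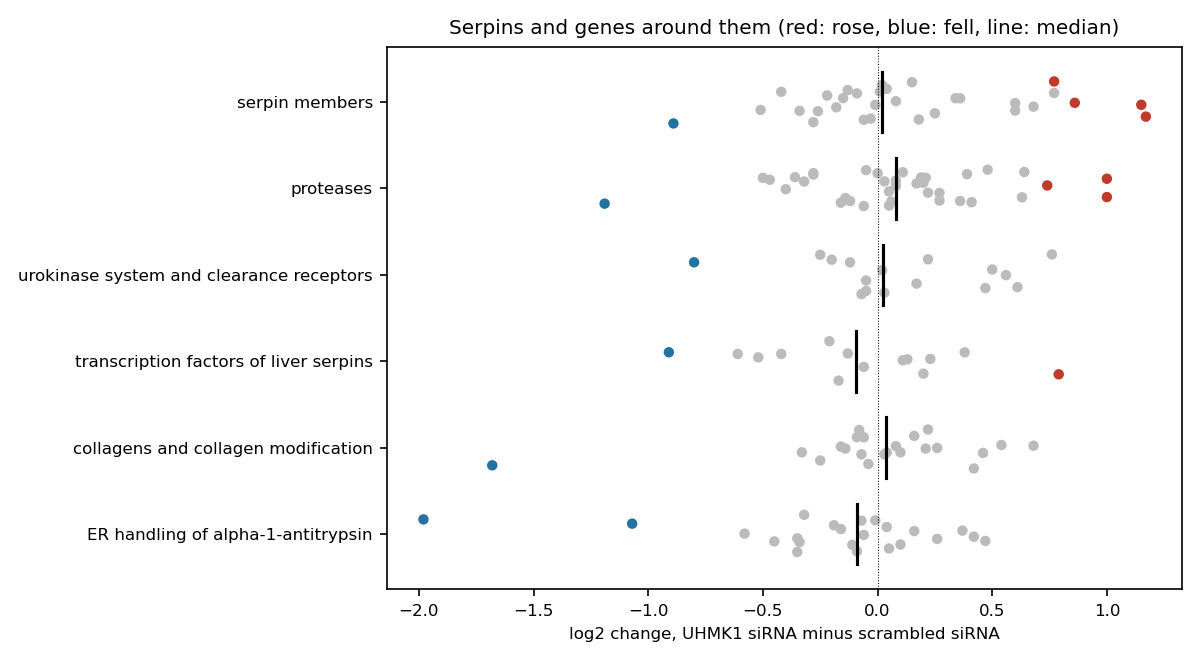
Log2 change, UHMK1 siRNA minus scrambled siRNA, of the 31 serpin genes and of 5 lists of genes around them, 1 point per gene, with vertical jitter only for display. Red points rose, blue points fell, grey points did not pass, and black lines are medians, which lie between -0.10 and 0.08.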

How the data were processed

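Per the labels' protocols, biotinylated cRNA from HepG2 cells was hybridised to 6 Affymetrix arrays, 3 for each siRNA. The deposited table holds log2 values for 135750 probe sets, for which the submitters' processing notes name Transcriptome Analysis Console 4.0 and RMA, with settings not given. RMA as usually run corrects background, normalizes quantiles and summarises probes. The array medians were 4.40 to 4.55, so the deposited distributions are not identical. Such values can compress large changes and do not show total RNA per cell. The number of arrays limits the precision.

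By the platform annotation 36176 probe sets carried 1 symbol, 1119 carried several, and 98455 were unnamed here. Symbols were updated by Entrez gene ID to RefSeq of GRCh38.p14. This left 33616 genes, 17579 of them protein-coding by gene ID or symbol. No source used here gives the array's genome build. The test was limma 3.58.1 in R 4.3.3 (lmFit and eBayes, two-sided, no covariates), tested on simulated data. The alternatives were quantile and cyclic loess normalization, a mean above 6, the mean of all probe sets, protein-coding genes only, the replicate block, a trended and robust prior, array weights and leaving out each array.

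The members and lists were chosen with earlier results of these data known. Every member is accounted for. Members past the threshold or with an unadjusted p under 0.05, and clade A hepatocyte members above 6, are given by array. Of each other list the called genes are named, at most 4. SERPINB8, SERPINH1 and other members given outside this rule were named after their values were seen. Promoter windows were listed for 25 of the 31 members. Some genes, 1 gene list and 1 promoter motif are not reported here.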

Additional observations from a re-analysis of the deposited data

How the results depend on the processing

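The 4 rises were 8 under quantile and cyclic loess normalization, among genes with a mean above 6, among protein-coding genes, with a trended and robust prior and with array weights, where SERPINB1, SERPIND1, SERPINF2 and SERPINI1 joined. The deviations of same-numbered arrays correlated at 0.0509, 0.0279 and -0.0434, so the data do not show that the numbers pair the arrays. With the replicate number as a block 2 rose (SERPINA6 and SERPINA4) and 0 fell, with adjusted p = 0.0775 for SERPINA5, 0.0689 for SERPINC1, 0.0696 for SERPINB9, 0.0515 for IL6ST, 0.0856 for PRSS8 and 0.0688 for SORL1 in limma. With 1 array left out 1 to 2 serpins rose and 0 fell, and of clade A 1 to 2 rose. With a trended and robust prior 2 fell, SERPINA7 being 1 fall in clade A. Clade B had 1 rise (SERPINB1) in those same 6 settings, and 0 falls under the block and with any array left out. The median of clade A hepatocyte serpins was 0.42 after quantile normalization and 0.16 to 0.39 with 1 array left out. That of clade B was -0.34 among genes above 6, where 3 genes remain and the value is that of SERPINB8 (-0.07 without UHMK1 siRNA array 2), and -0.21 to 0.04 with 1 array left out. Quantile normalization moved the median of all genes above 6 from -0.08 to 0.03. Of the genes around the serpins, 4 rose, but 7 under quantile or cyclic loess normalization, among protein-coding genes or with the trended prior, 8 among genes above 6 and 2 under the block. With 1 array left out 1 to 3 rose and 2 to 5 fell. No called serpin reversed. Uncalled changes near 0 turned sign. SERPINA1 was at 0.14 (quantile), 0.04 (cyclic loess), 0.03 (array weights) and ran from -0.13 to 0.09 with 1 array left out. With array weights SERPINB11 was at 0.16, SERPINB3 at -0.03 and SERPINE3 at -0.01. With 1 array left out SERPINA11 ran from -0.02 to 0.13, SERPINA9 from -0.14 to 0.04, SERPINB10 from -0.04 to 0.19, SERPINB11 from -0.33 to 0.19, SERPINB13 from -0.10 to 0.18, SERPINB3 from -0.10 to 0.42, SERPINB7 from -0.40 to 0.24 and SERPINE3 from -0.11 to 0.14. The cause of these shifts was not tested. Members at a mean of 6 or less may hide changes, and SERPINA1 lies near the top of the scale.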
